A study of Mus musculus with 30 samples.

Results

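TGF-beta signalling in microglia was followed here through 10 genes: the ligand *Tgfb1*, its surface activator *Nrros*, the receptors *Tgfbr1* and *Tgfbr2*, the transcription factors *Smad2*, *Smad3* and *Smad4*, and the negative regulators *Smad7*, *Ski* and *Skil*. They were chosen as named genes of the pathway and matched by Ensembl identifier, and all 10 were found among the 47643 genes of the expression table and passed the filter on low values that left 16897 genes for testing. Values are FPKM (fragments per kilobase of transcript, relative to all mapped fragments of the library), a scale that allows levels of different genes to be compared.

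Microglia, the resident macrophages of the brain, came from 3-month-old mice in which *Bin1* was left intact or was targeted by Cx3Cr1-Cre. The gene encodes a membrane-shaping adaptor protein. The 3 genotypes were *Bin1* flox/flox::Cx3Cr1-Cre+ (Homo, 5 males and 5 females), *Bin1* wt/flox::Cx3Cr1-Cre+ (Het, 6 males and 5 females) and *Bin1* wt/flox without Cre (WT littermates, 5 males and 4 females), with 1 library per mouse. CD11b+ CD45med cells were sorted from brain without cerebellum and olfactory bulbs. Cre was knocked into *Cx3cr1*, so by the cross Cre-positive mice carry a disrupted *Cx3cr1* allele, and this allele, Cre itself and the loss of *Bin1* cannot be told apart in comparisons of Homo or Het with WT. All 3 genotypes carried at least 1 floxed *Bin1* allele. The sort is as the paper describes it and was followed here. A culture of newborn microglia is described in the sample records, and which description holds for each library was not tested.

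*Bin1* averaged 258.3, 120 and 49.7 FPKM in WT, Het and Homo males and 253, 134 and 41.2 FPKM in females. The libraries labelled Het-M-0199 and Het-F-0206 held 51.8 and 42.7 FPKM of *Bin1*, inside or next to the Homo levels, and the latter held 13.9 FPKM of *Cx3cr1* against 1048 or more in the other female Het libraries, a level that goes against a single disrupted allele. Results were therefore also computed without both. Microglial markers summed to between 16580.6 and 24290.8 FPKM in every library, while T and NK cell markers did not exceed 0.4902. Markers of other cells reached 349 FPKM for neutrophils, 268 for choroid plexus, 128 for astrocytes and 126 for oligodendrocytes in the highest library of each. Relative depth, estimated from the steps between low values, ranged from 0.669 to 1.41 times the median library, and mouse numbers fell into an early range (6 libraries, up to WT-F-0122, 5 of them Cre-positive males) and a late range (24 libraries, from WT-M-0176).

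TGF-beta is secreted in a latent complex that must be held at a cell surface and opened before it can signal. In microglia the latent ligand is tethered by Nrros, and once released it binds a type II receptor (Tgfbr2), which recruits and phosphorylates the type I receptor kinase (Tgfbr1). The kinase phosphorylates Smad2 and Smad3, these join Smad4 and enter the nucleus, and Smad7, Ski and Skil limit the response at the receptor or on chromatin. Mice that lack the ligand, Nrros or Tgfbr2 in microglia lose the homeostatic gene programme of these cells. RNA levels of the components are measured here, not receptor activity or Smad phosphorylation.

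The receptors led the pathway in the 9 WT libraries. *Tgfbr1* averaged 528 FPKM and stood at rank 84 of 16897 genes, and *Tgfbr2* averaged 200.5 FPKM at rank 280. *Nrros* followed at 133 FPKM, *Ski* at 120 FPKM and *Tgfb1* at 116 FPKM. *Skil* reached 41.8 FPKM, *Smad2* 32.0 FPKM, *Smad4* 28.4 FPKM, *Smad3* 26.0 FPKM and the inhibitory *Smad7* 19.0 FPKM, which was still above 75.0% of the genes tested. The WT ranges of neighbours in this order overlapped except between *Tgfbr1* and *Tgfbr2* and between *Tgfb1* and *Skil*. *Ski* was above *Tgfb1* in 4 of 9 WT libraries and *Nrros* above *Ski* in 6 of 9, so the order of these 3 was within their spread, whereas *Skil* was above *Smad2* in all 9.

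**Figure D1:**
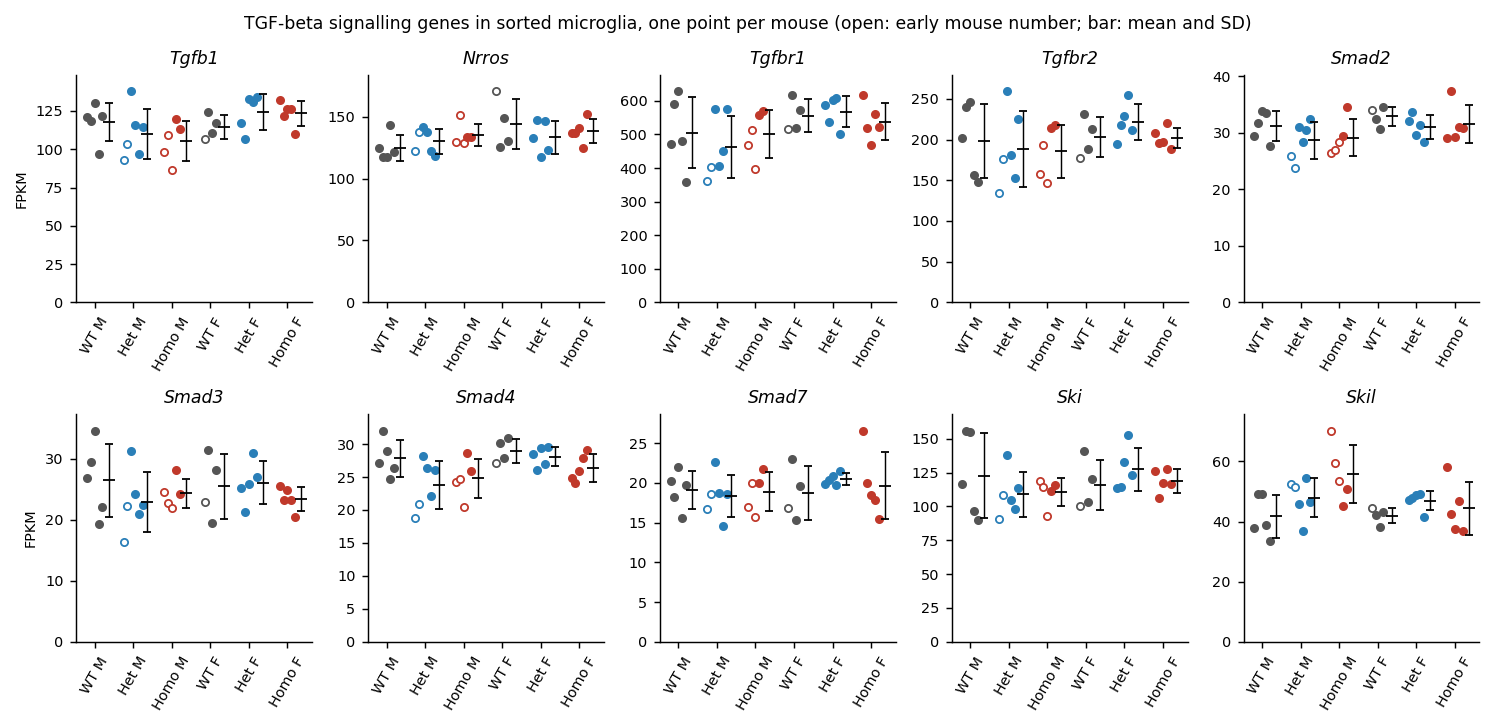
FPKM of the 10 pathway genes (1 panel each, linear axis from 0) in each of the 30 libraries, by genotype and sex, with group mean and SD and open symbols for early mouse numbers. Groups overlap in every panel, from a WT mean of 528 FPKM for *Tgfbr1* to 19.0 FPKM for *Smad7*.

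Whether loss of *Bin1* altered the pathway was asked by comparing Homo and Het with WT in each sex. No pathway gene was a DEG (adjusted p below 0.05 and more than 1.5-fold, limma with Benjamini-Hochberg adjustment over all genes tested), and in none did the libraries of the groups separate. In Homo males 0 of 10 genes were DEGs against 1.81% of all genes, 1 of 10 had an unadjusted p below 0.05 against 22.5%, and 0 of 10 had groups that did not overlap against 3.94%. In Het males the counts were 0 DEGs against 0.154%, 1 at an unadjusted p below 0.05 against 14.2%, and 0 without overlap against 0.84%. In Homo females they were 0 DEGs against 0.071%, 0 at an unadjusted p below 0.05 against 3.49%, and 0 without overlap against 2.31%. In Het females they were 0 DEGs against 0.13%, 0 at an unadjusted p below 0.05 against 3.95%, and 0 without overlap against 2.21%. Only in males was the share of all genes at an unadjusted p below 0.05 large enough to correspond to more than 1 of 10 genes, and there 1 of 10 pathway genes was counted.

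The intervals bound how large a difference between these groups of libraries could have been missed, in a fit without mouse number range. Early numbers made up 0 of 5 WT, 2 of 6 Het and 3 of 5 Homo males, so the male intervals do not separate genotype from number range. Over the other settings the Homo male log2 fold change ran from -0.088 to 0.29 for *Tgfbr1* and from -0.17 to 0.31 for *Tgfbr2*. The 95% confidence interval of the fold change lay within 1.5-fold in either direction for 9 of 10 genes in Homo males, 9 in Het males and all 10 in Homo and Het females. The exceptions were *Skil* in Homo males, whose interval reached a log2 fold change of 0.59, and *Smad3* in Het males, whose interval reached -0.62. The median log2 fold change of the 10 genes was -0.17 in Homo males (all genes 0.031), with 8 genes lower, and -0.19 in Het males (all genes 0.014), with 9 lower. In females it was -0.029 in Homo (all genes 0.00099), with 6 lower, and 0.076 in Het, with 3 lower. Among late mouse numbers the male medians were 0.068 in Homo and -0.042 in Het, while fitting the number range as a term gave 0.053 and -0.058. Without Het-M-0199 and Het-F-0206 the Het medians were -0.19 in males and 0.13 in females, with the same 0 DEGs (limma, 1 and 0 of 10 genes at an unadjusted p below 0.05). All-gene DEGs in this fit were 30 and 9 of 16891, and its share of all genes at that unadjusted p is not given here. In bulk libraries less RNA of a gene per cell and fewer cells that express it cannot be told apart.

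**Figure D2:**
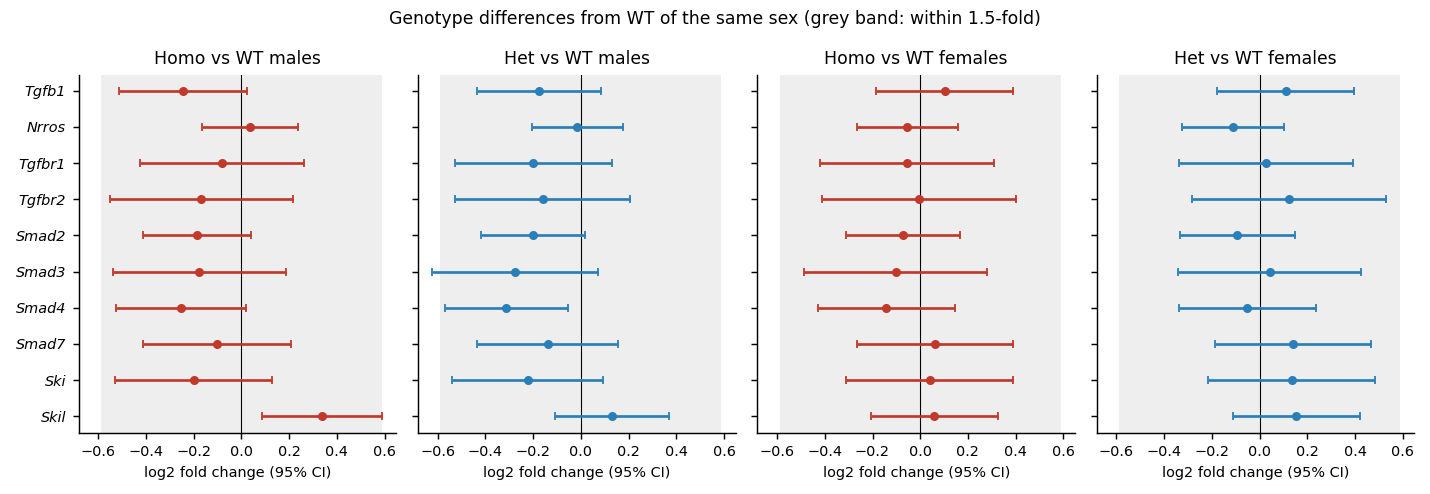
Log2 fold change with 95% confidence interval (limma) of the 10 pathway genes in Homo or Het against WT for males and females, with a grey band for changes within 1.5-fold. *Skil* in Homo males lies highest at 0.34, and its interval and that of *Smad3* in Het males are the ones that leave the band.

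The ligand *Tgfb1* (GRCm38, chr7:25687002-25705077, plus strand) was at 121, 119, 130, 97.2 and 121.6 FPKM in WT males and at 98.3, 109.3, 86.6, 120 and 113 FPKM in Homo males. Het males ranged from 92.997 through a median of 108.9 to 138 FPKM. The male groups overlapped, with 1 of 5 Homo libraries below the lowest WT library. The log2 fold change was -0.24 ± 0.13 (SE) in Homo males (adjusted p = 0.270, limma) and -0.17 ± 0.13 in Het males (adjusted p = 0.521). In females *Tgfb1* averaged 115 ± 7.75 (SD, n = 4) FPKM in WT, 124 ± 11.9 (n = 5) in Het and 123 ± 8.24 (n = 5) in Homo, and 3 of 5 libraries of both Cre-positive groups lay above the highest WT library. The Homo effect therefore differed in sign between the sexes, by -0.35 on the log2 scale, a difference that did not pass the test (adjusted p = 0.573). With late mouse numbers only, the male Homo difference was -0.0092.

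*Nrros* (chr16:32142785-32165594, minus strand), which displays latent TGF-beta1 on the microglial surface, had the smallest standard errors of the pathway. It was at 124, 118, 118, 143 and 121 FPKM in WT males and 130, 151, 129, 134 and 133 FPKM in Homo males, 1 WT and 1 Homo library being well above their own groups. Log2 fold changes were 0.035 ± 0.098 (SE) in Homo males, -0.014 ± 0.094 in Het males, -0.054 ± 0.10 in Homo females and -0.11 ± 0.10 in Het females, with adjusted p of 0.866 and 0.957 in males and 1 in females (limma). The related tether *Lrrc32* (GARP) was listed at 0 in all 9 WT libraries and did not exceed 0.0585 FPKM anywhere. *Itgb8*, a subunit of the integrin that opens the latent complex, averaged 0.0387 FPKM in WT, while its partner subunit *Itgav* averaged 54.2 FPKM.

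The receptors are transmembrane serine/threonine kinases. *Tgfbr1* (chr4:47353222-47414931, plus strand) was at 471, 591, 628, 479 and 359 FPKM in WT males and 469, 513, 396, 559 and 570 FPKM in Homo males, with every Homo library inside the WT range. Its log2 fold changes were -0.081 ± 0.17 (SE) in Homo males, -0.20 ± 0.16 in Het males, -0.054 ± 0.18 in Homo females and 0.025 ± 0.18 in Het females (adjusted p from 0.566 to 1, limma). *Tgfbr2* (chr9:116084293-116175360, minus strand) was at 201.9, 240, 246, 157 and 148 FPKM in WT males and 158, 192.9, 147, 214 and 217 FPKM in Homo males, again with overlap. Its log2 fold changes were -0.17 ± 0.19, -0.16 ± 0.18, -0.0042 ± 0.20 and 0.12 ± 0.20 in the same order of groups (adjusted p from 0.620 to 1). In females *Tgfbr1* was at 515, 617, 520 and 573 FPKM in WT, at 588, 539, 604, 609 and 502 FPKM in Het and at 618, 519, 468, 560 and 524 FPKM in Homo. *Tgfbr2* was at 177.9, 232, 188 and 213 FPKM in WT, at 194, 217, 229, 254 and 212 FPKM in Het and at 209, 195, 196.9, 220 and 188 FPKM in Homo females. Both receptors varied by more within WT males than between any pair of group means.

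The promoter windows of the receptors and of *Nrros* are printed to show where Smad and GC-box letters lie in the 3 most abundant genes of the pathway. Each window runs from 250 bases before to 50 bases after the RefSeq start on GRCm38.p6, 5′ to 3′ on the gene's strand. Capitals mark CAGAC, the core letters bound by Smads, or GGGCGG, the GC box bound by Sp1-family factors, on either strand. The *Tgfbr1* window is chr4:47352972-47353271 (plus), the *Tgfbr2* window chr9:116175314-116175613 (minus) and the *Nrros* window chr16:32165545-32165844 (minus).
Tgfbr1: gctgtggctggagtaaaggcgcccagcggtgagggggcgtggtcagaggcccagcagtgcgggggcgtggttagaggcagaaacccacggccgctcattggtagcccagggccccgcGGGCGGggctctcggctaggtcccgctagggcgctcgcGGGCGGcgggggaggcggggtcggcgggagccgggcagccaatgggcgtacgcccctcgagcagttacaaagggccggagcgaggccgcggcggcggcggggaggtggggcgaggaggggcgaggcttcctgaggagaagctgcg
Tgfbr2: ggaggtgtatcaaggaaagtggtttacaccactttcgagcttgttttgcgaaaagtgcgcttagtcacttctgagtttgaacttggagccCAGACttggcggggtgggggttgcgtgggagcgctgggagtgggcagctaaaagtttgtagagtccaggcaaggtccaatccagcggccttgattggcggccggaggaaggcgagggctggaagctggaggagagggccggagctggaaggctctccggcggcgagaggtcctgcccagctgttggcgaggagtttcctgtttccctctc
Nrros: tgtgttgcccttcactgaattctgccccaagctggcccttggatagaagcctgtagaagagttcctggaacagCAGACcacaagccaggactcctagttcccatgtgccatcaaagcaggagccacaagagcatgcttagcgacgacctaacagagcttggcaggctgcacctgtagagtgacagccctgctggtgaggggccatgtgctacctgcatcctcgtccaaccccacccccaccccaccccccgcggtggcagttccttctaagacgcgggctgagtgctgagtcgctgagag

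The printed *Tgfbr1* window was 74.7% G or C, held 34 CpG dinucleotides and 2 GC boxes and no CAGAC. A second *Tgfbr1* window (chr4:47385966-47386265), whose start lies 32994 bases from the gene start, is not printed. It was 52% G or C, with 3 CpG, 1 CAGAC and 0 GC boxes. The *Tgfbr2* and *Nrros* windows were both 59% G or C, with 15 and 8 CpG, 1 CAGAC each and no GC box. Of 32851 promoter windows of this length, 49.6% held CAGAC and 35.7% held GGGCGG on either strand. The full Smad palindrome GTCTAGAC was in 0.213% and the PU.1 letters GAGGAAGT in 3.20%, and neither was in any of the 7 windows found for 6 of the 10 genes. *Tgfb1* and *Ski* each held 6 GC boxes and *Smad3* held 2. *Smad2*, *Smad4*, *Smad7* and *Skil* had no entry.

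Smad2 and Smad3 are the receptor-activated Smads and Smad4 their common partner. *Smad4* had the lowest log2 fold change of the pathway in males. It was at 27.1, 32.0, 29.0, 24.8 and 26.4 FPKM in WT males, at 24.2, 24.8, 20.4, 28.7 and 25.9 FPKM in Homo males, and from 18.8 through a median of 24.1 to 28.2 FPKM in Het males. Of the Het males 3 of 6, and of the Homo males 2 of 5, were below every WT male, and the rest overlapped with WT. The log2 fold change was -0.31 ± 0.13 (SE, 95% interval -0.57 to -0.053) in Het males (adjusted p = 0.301, limma) and -0.25 ± 0.13 in Homo males (adjusted p = 0.253). Among late mouse numbers only these were -0.13 and -0.024. In females *Smad4* averaged 29.0 ± 1.82 (SD, n = 4) FPKM in WT, 28.1 ± 1.49 (n = 5) in Het and 26.4 ± 2.13 (n = 5) in Homo, and the Homo log2 fold change was -0.14 ± 0.14 (SE, adjusted p = 1).

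*Smad2* was at 29.4, 31.6, 33.8, 33.5 and 27.6 FPKM in WT males and 26.3, 27.0, 28.3, 29.4 and 34.5 FPKM in Homo males. Its log2 fold changes were -0.19 ± 0.11 (SE) in Homo males, -0.20 ± 0.11 in Het males, -0.073 ± 0.12 in Homo females and -0.093 ± 0.12 in Het females. All 5 Homo libraries of *Smad3* (chr9:63646767-63757994, minus strand), from 22.0 to 28.2 FPKM, lay inside the WT male range of 19.3 to 34.6 FPKM. Its log2 fold changes were -0.18 ± 0.18, -0.27 ± 0.17, -0.10 ± 0.19 and 0.042 ± 0.19 in the same order. For *Smad2* and *Smad3* the lowest of the 8 adjusted p was 0.320 (limma). *Smad2*, *Smad4* and the inhibitory *Smad7* lie on the same chromosome as *Bin1*, between 41.2 and 43.8 Mb from it.

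Of the negative regulators, *Skil*, which encodes the Smad co-repressor SnoN (chr3:31095058-31122577, plus strand), gave the smallest p of the pathway in the comparisons of Homo or Het with WT. It was at 37.8, 49.1, 49.3, 38.9 and 33.5 FPKM in WT males and at 70.2, 59.5, 53.4, 45.2 and 50.7 FPKM in Homo males. Homo libraries were above the highest WT library in 4 of 5 cases, and the remaining one lay inside the WT range. The log2 fold change was 0.34 ± 0.12 (SE, 95% interval 0.085 to 0.59, unadjusted p = 0.0104), which did not pass adjustment (adjusted p = 0.108, limma). The 3 highest Homo values were those of the 3 early mouse numbers. Among late mouse numbers only, with 2 Homo males left, the log2 fold change was 0.22 (adjusted p = 0.842), and over all other settings it stayed between 0.22 and 0.42. Het males ranged from 36.7 through a median of 49.0 to 54.6 FPKM, a log2 fold change of 0.13 ± 0.12 (adjusted p = 0.608).

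In females *Skil* was at 44.5, 42.2, 38.3 and 43.0 FPKM in WT, at 47.3, 47.9, 48.8, 49.3 and 41.4 FPKM in Het and at 58.2, 42.6, 37.5, 46.9 and 36.9 FPKM in Homo. The Homo females thus lay on both sides of WT, with a log2 fold change of 0.058 ± 0.13 (SE, adjusted p = 1, limma), and 4 of 5 Het females were above the highest WT female at 0.15 ± 0.13 (adjusted p = 1). The male and female Homo effects on *Skil* differed by 0.28 ± 0.18, which did not pass the test (adjusted p = 0.605). *Ski* (chr4:155154075-155222592, minus strand), its relative, ranged from 90.2 to 156 FPKM in WT males and 93.1 to 119 FPKM in Homo males, and its log2 fold changes were -0.20 ± 0.16 in Homo males, -0.22 ± 0.15 in Het males, 0.039 ± 0.17 in Homo females and 0.13 ± 0.17 in Het females. *Smad7*, which blocks the receptor and is itself induced by Smad signalling, ranged from 15.6 to 22.0 FPKM in WT males and from 15.7 to 21.8 FPKM in Homo males. Its log2 fold changes were -0.10 ± 0.15, -0.14 ± 0.14, 0.062 ± 0.16 and 0.14 ± 0.16 in the same order, each smaller than its standard error.

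The dose of *Bin1* was compared by setting Homo against Het, groups that share Cre. Het-M-0199 and Het-F-0206, at 51.8 and 42.7 FPKM of *Bin1*, lay within the Homo range of their sex but were kept under their labels. Early mouse numbers made up 3 of 5 Homo and 2 of 6 Het males, so dose and number range are not fully separated there. In males 0 of 10 pathway genes were DEGs (all genes 0%) and 0 of 10 had an unadjusted p below 0.05 (all genes 3.85%). In females the counts were 0 (all genes 0.0118%) and 0 (all genes 2.06%). Log2 differences ran from -0.070 for *Tgfb1* to 0.21 for *Skil* in males and from -0.14 for *Smad3* to 0.058 for *Nrros* in females, and every interval in both sexes lay within 1.5-fold (limma). The male median was 0.043 (all genes 0.014), with 8 of 10 genes higher. With the number range as covariate it was 0.12 (all genes 0.0027), with all 10 genes higher. Among late numbers, with 2 Homo males left, it was 0.10 (all genes 0.0029), again with all 10 higher. Without Het-M-0199 and Het-F-0206 the medians were 0.070 in males (all genes 0.010) and -0.097 in females (all genes -0.00026). Averaging Homo and Het of both sexes against WT, 0 of 10 genes were DEGs (all genes 0.823%) and 2 of 10 had an unadjusted p below 0.05 (all genes 14.5%). These were *Smad4* at -0.19 (adjusted p = 0.293) and *Skil* at 0.17 (adjusted p = 0.310). This average rests on the same WT libraries as the comparisons by sex.

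Between the sexes, with genotypes averaged, 9 of 10 pathway genes were higher in females, with a median log2 difference of 0.15 against -0.042 for all genes. No gene was a DEG (all genes 0.438%), and 5 of 10 had an unadjusted p below 0.05 (all genes 26.8%). These were *Tgfbr1* at 0.25 ± 0.098 (SE), *Smad4* at 0.19 ± 0.077, *Tgfb1* at 0.18 ± 0.077, *Smad2* at 0.16 ± 0.064 and *Nrros* at 0.14 ± 0.057, with adjusted p between 0.109 and 0.131 (limma). Without the library Het-M-0197, *Tgfbr1* at 0.28 and *Tgfb1* at 0.21 passed an adjusted p of 0.05. The sexes differed in mouse numbers, since 5 of 16 male and 1 of 14 female libraries were early, and among late numbers the median was 0.071 with 0 of 10 genes at an unadjusted p below 0.05. The difference between the sexes in the Homo effect gave 0 DEGs (all genes 0%) and 0 of 10 genes at an unadjusted p below 0.05 (all genes 9.29%), and that in the Het effect gave 0 (all genes 0%) and 0 (all genes 4.53%).

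Pathway genes passed an adjusted p of 0.05 in 1 comparison, that of early with late mouse numbers. Among Cre-positive males, 5 early libraries (3 Homo and 2 Het) were compared with 6 late ones (2 Homo and 4 Het) with genotype in the fit. The receptors and 2 Smads were lower in early libraries past an adjusted p of 0.05, which is 4 of 10 genes against 6.9% of all genes called lower and 15.9% called in either direction. With the 1.5-fold threshold 0 of 10 were DEGs (all genes 7.98%), and 7 of 10 had an unadjusted p below 0.05 (all genes 33.1%). The median log2 difference was -0.41 for the pathway and 0.095 for all genes, and without scaling these were -0.25 and 0.23, so the pathway median lay below that of all genes under both. The count of 4 rested on single libraries: it was 0 without Het-M-0100 or Homo-M-0189, 1 without Het-M-0108, Het-M-0210, Homo-M-0093 or Homo-M-0109, 2 without Het-M-0197 or Homo-M-0190, and 8 without Het-M-0203. The log2 differences of the 10 genes kept their signs in all of these fits. The share of all genes called in each of them is not given here, so these counts cannot be set against the whole table.

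*Smad2* separated completely. It was at 26.3, 27.0 and 28.3 FPKM in early Homo and 25.9 and 23.8 FPKM in early Het males, against 29.4 and 34.5 FPKM in late Homo and 30.9, 28.4, 30.4 and 32.4 FPKM in late Het males. It was the only 1 of 10 genes whose early and late libraries did not overlap (all genes 5.64%), with a gap of 28.3 to 28.4 FPKM, and its log2 difference was -0.42 ± 0.091 (SE, adjusted p = 0.0170, limma). *Smad4* was at 24.2, 24.8 and 20.4 FPKM in early Homo and 18.8 and 20.9 FPKM in early Het males, against 28.7 and 25.9 FPKM in late Homo and 28.2, 26.4, 22.1 and 26.1 FPKM in late Het males. All but 1 late library, Het-M-0203, were above every early one, and the log2 difference was -0.47 ± 0.12 (adjusted p = 0.0265).

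*Tgfbr1* averaged 459 FPKM in early and 564 FPKM in late Homo males and 382 and 503 FPKM in early and late Het males, and *Tgfbr2* averaged 166 and 216 FPKM in early and late Homo males and 155 and 204.5 FPKM in early and late Het males. Early and late libraries of both receptors overlapped. The log2 differences were -0.50 ± 0.15 (SE) for *Tgfbr1* (adjusted p = 0.0373, limma) and -0.55 ± 0.17 for *Tgfbr2* (adjusted p = 0.0459). *Tgfb1* at -0.40 (adjusted p = 0.0508) and *Smad3* at -0.43 (adjusted p = 0.0634) came close to the threshold, *Smad7*, *Ski* and *Nrros* were at -0.31, -0.29 and -0.15, and *Skil* alone was higher in early libraries, at 0.10 (adjusted p = 0.525). Means were lower in early libraries within both genotypes for 8 of 10 genes, not for *Nrros* and *Skil*.

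Other library properties moved with the number range. Early Cre-positive males had a relative depth of 0.669 to 0.920 against 0.727 to 1.41 in late ones, and a higher ratio of lncRNA to protein-coding level (mean log2 difference -1.76 to -1.35 against -2.45 to -1.64). Astrocyte markers summed to 90.4 to 128 FPKM against 65.7 to 102 FPKM, oligodendrocyte markers to 20.6 to 126 FPKM against 14.1 to 33.1 FPKM and border macrophage markers to 20.2 to 29.7 FPKM against 12.4 to 20.5 FPKM. Neutrophil markers summed to 0.0923 to 189.5 FPKM against 0 to 13.04 FPKM, with 2 of 7 higher in early libraries past an adjusted p of 0.05, and endothelial and pericyte markers to 6.71 to 10.7 FPKM against 9.44 to 11.6 FPKM, with 1 of the 2 tested lower. At the same threshold 2 of 5 astrocyte, 2 of 4 oligodendrocyte, 1 of 7 border macrophage and 1 of 3 tested monocyte markers were also higher in early libraries. Of all genes 15.9% passed it in either direction. Microglial markers summed to 16580.6 to 22135 FPKM against 18963 to 24291 FPKM, and 0 of the 8 passed an adjusted p of 0.05 in this comparison. With the lncRNA ratio as a covariate, *Tgfbr1* was at 0.011, *Tgfbr2* at 0.20, *Smad2* at -0.23 (adjusted p = 0.764, limma) and *Smad4* at -0.030 (adjusted p = 0.977), and no pathway gene passed. The part of depth, lncRNA ratio and other cell types in these differences was not tested further, and what the mouse number stands for is not given in the sources used here.

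**Figure D3:**
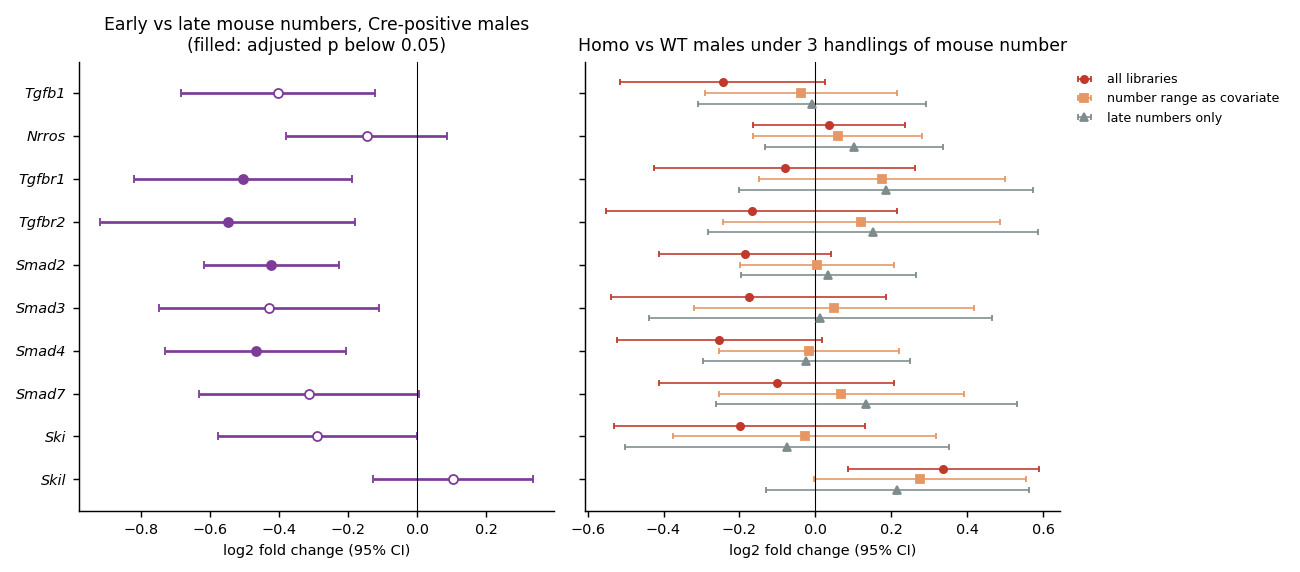
Left, log2 difference between early and late mouse numbers among Cre-positive males with 95% confidence interval, filled where the adjusted p is below 0.05 (limma): *Smad2*, *Smad4*, *Tgfbr1* and *Tgfbr2* lie below 0. Right, Homo against WT males for all libraries, with the number range as covariate, and for late numbers only: the median moves from -0.17 to 0.053 and 0.068.

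The rest of the pathway was read from 7 lists. Among other ligands and the machinery that stores and releases them (9 of 14 genes tested), other TGF-beta and BMP receptors (8 of 9), other Smads (3 of 4), Smad partners and turnover factors (19 of 21) and Smad-responsive genes of many cell types (10 of 12), no gene was a DEG in Homo or Het of either sex (limma). In Homo males 1, 2, 1, 5 and 0 of these had an unadjusted p below 0.05, against the 22.5% of all genes given above, and the medians of the 5 lists were -0.19, -0.27, -0.23, -0.054 and -0.031. The genes with the smallest p were the co-receptor *Eng* at -0.43 (adjusted p = 0.0729), the immunophilin *Fkbp1a*, which binds Tgfbr1, at -0.30 (adjusted p = 0.0772), and *Pmepa1*, a Smad target that sequesters receptor Smads, at -0.55 (adjusted p = 0.0807). *Itgb5*, an integrin subunit abundant in microglia, was at -0.42 (adjusted p = 0.168), *Acvrl1* at -0.38 (adjusted p = 0.128) and *Smad1* at -0.32 (adjusted p = 0.219). Smad-responsive genes had 4 of 10 at an unadjusted p below 0.05 in Het females (all genes 3.95%), with 8 higher and a median of 0.13. There *Cdkn1a*, a cell cycle inhibitor, was at 0.92 (adjusted p = 0.145) and *Id2*, an inhibitor of helix-loop-helix factors, at 0.37 (adjusted p = 0.762). With Homo and Het of both sexes averaged against WT, *Cdkn1a* was the 1 DEG of these 5 lists (all genes 0.823%) and rose by 0.62 ± 0.14 (SE, adjusted p = 0.0157, limma). It was a DEG in 10 of 12 other settings and in 27 of 30 fits without 1 library, not with a pseudocount of 1, without both Het-M-0199 and Het-F-0206, or without Het-F-0206, WT-M-0178 or WT-M-0202. In Homo females *Eng* was at 0.094 and *Pmepa1* at 0.23 (adjusted p = 1 for both).

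Microglial genes that need TGF-beta for their expression (14 of 14 tested) contained no DEG in any of the 4 comparisons. *P2ry12*, the purinergic receptor that marks homeostatic microglia, averaged 4451 FPKM in WT and had a log2 fold change of 0.0016 in Homo males, and *Sall1*, the transcription factor of microglial identity, was at -0.11 (adjusted p = 0.621, limma). *Gpr34*, a lysophospholipid receptor, was at 0.56 (adjusted p = 0.0537) and *Csf1r*, the receptor for the survival factor of microglia, at -0.51 (adjusted p = 0.156). The median of the list was -0.20 in Homo males, with 11 of 14 lower and 3 higher. It was -0.20 in Het males, with 12 of 14 lower, and 0.015 in Homo females. In early against late Cre-positive males all 14 were lower, with a median of -0.47, and 3 passed an adjusted p of 0.05, against 6.9% of all genes called lower and 15.9% in either direction. These were *Olfml3* at -0.64, *Pros1* at -0.63 and *Slc2a5* at -0.63.

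Genes that TGF-beta is known to hold down in microglia (12 of 12 tested) had 3 DEGs in Homo males against 1.81% of all genes, and all 3 were lower. At an unadjusted p below 0.05 there were 8 of 12 (all genes 22.5%), with 5 of the 12 higher, 7 lower and a median of -0.66. *Apoe*, the lipid carrier, averaged 517 ± 47.2 (SD, n = 5) FPKM in WT males, from 470 to 572, and 254 ± 47.3 (n = 5) FPKM in Homo males, from 185 to 298. It fell by 1.13 on the log2 scale (adjusted p = 0.00230, limma), with no overlap. *Cd74*, the MHC class II invariant chain, fell by 1.21 (118 to 54.0 FPKM, adjusted p = 0.0318) and *Lgals3*, a galectin of phagocytes, by 0.93 (2.92 to 1.60 FPKM, adjusted p = 0.0487). With the mouse number range as covariate, *Apoe* was at -0.87 (adjusted p = 0.0494), *Cd74* at -1.28 (adjusted p = 0.146) and *Lgals3* at -0.57 (adjusted p = 0.532), and among late numbers, with 2 Homo males left, they were at -0.90, -1.23 and -0.41 and none of the 3 passed. The pattern recognition receptor *Clec7a* at 0.89 (adjusted p = 0.0593) and the cytokine *Il1b* at 0.81 (adjusted p = 0.0814) pointed the other way without passing, while the MHC class II chains *H2-Ab1* and *H2-Aa* were at -0.91 and -1.27 (adjusted p = 0.0611 and 0.0850). On leaving out each of the 10 libraries in turn, *Apoe* stayed a DEG in all 10 fits, *Cd74* in 5 (not without Homo-M-0093, Homo-M-0109, WT-M-0177, WT-M-0178 or WT-M-0258) and *Lgals3* in 3 (without Homo-M-0189, Homo-M-0190 or WT-M-0202). Marker sums of other cells also differed, since border macrophage markers summed to 17.5 to 47.0 FPKM in WT and 12.4 to 29.7 FPKM in Homo males, neutrophil markers to 43.9 to 349 FPKM and 0 to 80.8 FPKM, and choroid plexus markers to 0.166 to 268 FPKM (median 73.3) and 0.351 to 22.8 FPKM (median 11.52), and their part in the result was not tested.

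In Het females the receptor tyrosine kinase *Axl* was the only DEG of the same list (all genes 0.13%), with 4 of 12 at an unadjusted p below 0.05 (all genes 3.95%), and was higher, at 16.3 FPKM (10.2 to 26.8) against 6.03 FPKM (4.63 to 7.81) in WT, a log2 fold change of 1.35 (adjusted p = 0.00819, limma). Without both Het-F-0206 and Het-M-0199 it was 1.15 and did not pass, nor did it without WT-F-0122, at 1.22. *Axl* was at 0.64 in Homo females and 0.53 in Het males (adjusted p = 1 and 0.301). With Homo and Het of both sexes averaged against WT, 3 of 12 genes of this list were DEGs (all genes 0.823%) and 10 of 12 had an unadjusted p below 0.05 (all genes 14.5%), with 6 higher, 6 lower and a median of -0.11. The 3 DEGs were all higher: *Il1b* at 0.83 (adjusted p = 0.00665, limma), *Clec7a* at 0.69 (adjusted p = 0.0293) and *Axl* at 0.65 (adjusted p = 0.0122). *Il1b* and *Axl* stayed DEGs in all 12 other settings and all 30 fits without 1 library. *Clec7a* stayed one in 9 and 25 of these, not without a filter, among late numbers (0.69, adjusted p = 0.0949), with the lncRNA ratio as covariate, or without WT-F-0192, WT-F-0200, WT-M-0176, WT-M-0177 or WT-M-0178.

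**Figure D4:**
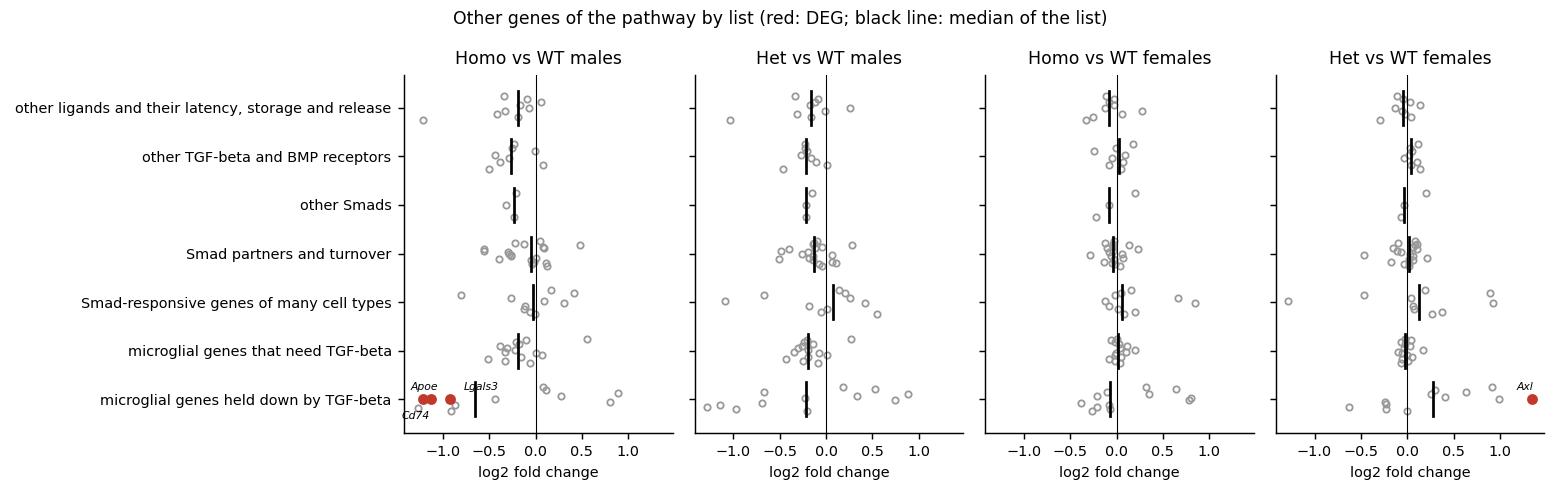
Log2 fold changes of the genes of the 7 lists in Homo or Het against WT of each sex, 1 point per gene, with DEGs in red. The DEGs are *Apoe*, *Cd74* and *Lgals3* (lower, Homo males) and *Axl* (higher, Het females), all in the list of genes held down by TGF-beta.

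Levels of the pathway genes other than *Smad2*, *Nrros* and *Skil* varied together across the 30 libraries. This is described by Pearson's r of log2 values with no test, since libraries share depth and number range. *Tgfbr2* and *Ski* had an r of 0.925, *Tgfbr1* and *Tgfbr2* 0.912, *Smad3* and *Ski* 0.884 and *Tgfb1* and *Tgfbr2* 0.882. The lowest value among the genes that varied together was 0.613, for *Smad4* and *Smad7*. With these genes *Smad2* ranged from 0.457 with *Smad7* to 0.781 with *Tgfbr1*. *Skil* ranged from -0.171 with *Nrros*, the lowest value, to 0.295 with *Ski*. With the genes other than *Skil*, *Nrros* ranged from 0.219 with *Smad7* to 0.477 with *Smad2*. Within the 24 late libraries *Tgfbr1* and *Tgfbr2* had an r of 0.860 and *Skil* one of 0.728 with *Tgfbr1* and -0.133 with *Nrros*, whereas *Tgfb1* and *Smad2* went from 0.605 to 0.112.

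**Figure D5:**
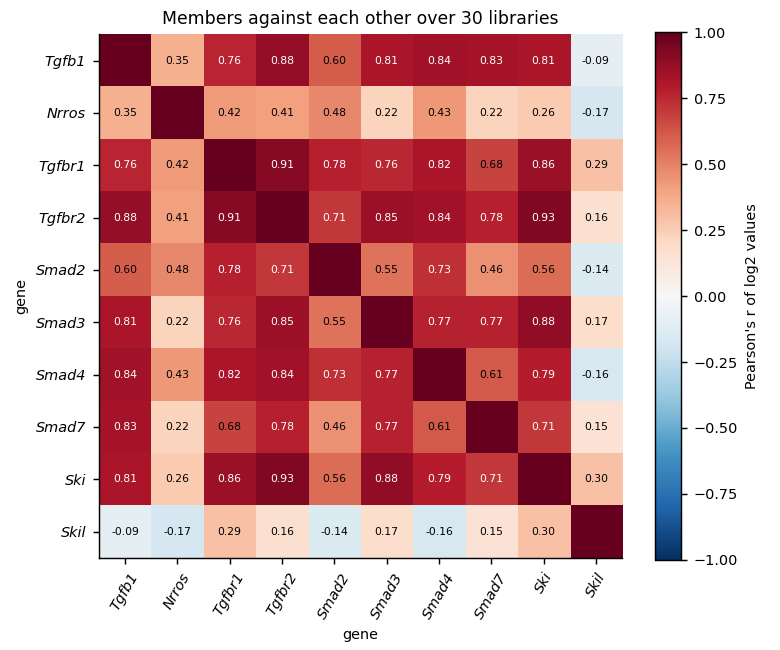
Pearson's r of log2 levels across 30 libraries for every pair of the 10 pathway genes, colour from low to high. The block of *Tgfb1*, the receptors, *Smad3*, *Smad4* and *Ski* is warm, and *Skil* and *Nrros* have the lowest value, -0.171.

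Of 11621 other genes, those most like *Tgfb1* across the 30 libraries were *Il6ra* (r = 0.947), *Agpat3* (0.945) and *Clstn1* (0.943). *Tgfbr1* was most like *Man1a* (0.960), *Pde3b* (0.951) and *Pdcd6ip* (0.948), and among those most like *Tgfbr2* were *Sema4d* (0.970) and *Itgam* (0.968), the CD11b chain used in the sort. In the 24 late libraries the r with *Il6ra*, *Man1a* and *Sema4d* was 0.880, 0.923 and 0.951. *Nrros* had no such close neighbour, the highest being *Cept1* at 0.817.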

How the data were processed

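Total RNA of sorted microglia was sequenced on an Illumina HiSeq by the authors. The paper names SMARTer v4 amplification, and its description was followed here. The sample records name a TruSeq kit, and which holds was not tested. The deposited table holds FPKM per gene, which the authors made with OmicSoft OSA4 on mm10, the Ensembl.R84 gene model and RSEM. It gives no read counts, so depth is known only as a ratio between libraries. Of its columns, 6 matched no listed sample and were not used. Samples were grouped by genotype and sex from the labels.

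Libraries were scaled to a common level (median of ratios, genes averaging 1 FPKM or more) and transformed to log2(FPKM + 0.1), a scale that understates changes of low genes. Printed FPKM, their means and the overlap between groups are of the values as deposited, before this scaling. A filter at an average of 0.1 FPKM left 16897 genes, which were fitted with limma 3.58.1 (R 4.3.3, trend) on all 6 groups, without covariates, and p-values were adjusted by Benjamini-Hochberg. DEGs had an adjusted p below 0.05 and a change over 1.5-fold. Early and late mouse numbers were compared in 11 Cre-positive male libraries over 17326 genes with genotype in the fit. The script was tested on simulated data. Mice are the replicates. All 10 members are named, and of each list the DEGs or, with none, the genes with the smallest p in Homo males, with a few others described for their role after values were seen. Members and lists were chosen with earlier results of these data known. Alternatives were pseudocount, filter, scaling, weights, groups fitted, number range, lncRNA ratio and each library left out. Motifs were searched on both strands of RefSeq promoter windows. One of the genes most like a member is not reported here.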

Additional observations from a re-analysis of the deposited data

Results flagged for a closer look

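In 60 sets of values (10 pathway genes in 6 groups), 5 single libraries lay far from the rest of their group by Dixon's criterion, where chance alone gives about 1 in 20. *Nrros* was at 143 FPKM in WT-M-0202 against 118 to 124 FPKM in the other WT males, and at 151 FPKM in Homo-M-0097 against 129 to 134 FPKM in the other Homo males. *Smad2* was at 37.3 FPKM in Homo-F-0201 against 29.0 to 30.9 FPKM in the other Homo females. *Ski* was lowest in Homo-M-0109, at 93.1 FPKM against 111 to 119 FPKM, and *Skil* was lowest in Het-F-0257, at 41.4 FPKM against 47.3 to 49.3 FPKM. No library stood apart for more than 1 pathway gene.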

How the results depend on the processing

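No pathway gene became a DEG in any genotype or sex comparison under any alternative or left-out library. In Homo males the median log2 fold change of the pathway genes, -0.17, was 0.053 with the number range as covariate, 0.068 with late numbers only and 0.15 with the lncRNA ratio as covariate, and in Het males it was 0.031 with the lncRNA ratio. In Homo males the count at an unadjusted p below 0.05 was 0 with the number range or late numbers and 3 with the lncRNA ratio, where all 10 genes were higher. The share of all genes at that p under these settings is not given here. The sex difference of the Homo effect moved to 0.17, 0.14 and 0.16 under these 3 settings and that of the Het effect to -0.057, -0.041 and -0.043, and females against males was -0.045 with the lncRNA ratio. Early against late, the median was 0.12 with the lncRNA ratio, where *Tgfbr1* (0.011) and *Tgfbr2* (0.20) changed sign. The 4 genes past an adjusted p there became 1 without a filter, 1 without scaling, 2 with quantile normalization, 1 as TPM, 7 with array weights and 0 with the lncRNA ratio, and between 0 (without Het-M-0100 or Homo-M-0189) and 8 (without Het-M-0203) on leaving out 1 library. Calls over all genes moved too. All-gene DEGs there, with the 1.5-fold threshold, were 1383 of 17326 in the main fit and 600 of 24552 without a filter. They were 1699 without scaling, 1145 with quantile normalization, 1592 as TPM, 2257 with array weights and 1 with the lncRNA ratio. With that threshold 0 of 10 pathway genes were called in each of these settings. The share of all genes past an adjusted p of 0.05 alone under these alternatives is not given here, so the counts of 1 to 7 pathway genes have no matching background. Pathway DEGs there were 4 without a fold threshold and 0 to 1 on leaving out 1 library (1 without Het-M-0203 or Homo-M-0097). In the lists, Smad-responsive genes had 1 DEG in Homo females with array weights or a fit of only the groups compared, and 1 in Het females with array weights (0 to 1 on leaving out a library, 1 without Het-F-0205). All-gene DEGs in these fits were 36 of 16897, 21 of 16488 and 63 of 16897. Genes that need TGF-beta had 1 DEG in Homo males without scaling, with quantile normalization, as TPM or with array weights (0 to 1, 1 without WT-M-0202). There the DEGs among all 16897 genes were 282, 363, 266 and 480. The 3 DEGs held down by TGF-beta in Homo males became 5 with a mean of at least 1 FPKM, 1 without a filter, 1 with the number range, 0 with late numbers and 1 with the lncRNA ratio. All-gene DEGs went from 306 of 16897 to 335 of 11622, 186 of 27137, 35 of 16897, 9 of 16565 and 68 of 16897 in the same order. Leaving out 1 library gave 1 to 5 DEGs of this list, with 5 without Homo-M-0189 or WT-M-0202 and 1 without Homo-M-0093, Homo-M-0109, WT-M-0177 or WT-M-0178. The 1 DEG of this list in Het females became 2 with array weights or the lncRNA ratio and 0 with only the groups compared, late numbers, or without Het-F-0206 and Het-M-0199 (0 to 1, 0 without WT-F-0122). All-gene DEGs went from 22 of 16897 to 63 of 16897, 44 of 16897, 9 of 16430, 12 of 16565 and 9 of 16891 in the same order. Leaving out 1 library gave 0 to 1 DEGs among other receptors (1 without Homo-M-0189) and 0 to 2 among Smad partners (2 without Homo-M-0189, 1 without WT-M-0202) in Homo males, and 0 to 2 among genes held down in Het males (2 without Het-M-0108). All-gene counts for the fits leaving out 1 library are not given here. The causes were not tested. Depth in reads is unknown. No paired analysis was possible because mouse numbers are not shared between groups.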
